A study of Mus musculus with 8 samples.

Results

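Gene expression of 10 iron, heme and metallothionein genes was examined in the liver of fasted mice that lacked pyruvate carboxylase in hepatocytes. The 10 genes, chosen by name, were Hamp and Hamp2 (hepcidins), Slc40a1 (ferroportin), Tfrc (transferrin receptor), Fth1 and Ftl1 (ferritin heavy and light chains), Alas1 (first enzyme of heme synthesis), Hmox1 (heme oxygenase 1) and Mt1 and Mt2 (metallothioneins). They are 10 of the 35275 genes in the count table, and all 10 were among the 13168 genes that passed the filter on low counts. RNA-seq libraries were made from the livers of 4 Pcx L-/- and 4 control male mice, 9 weeks old, after a 24 h fast, with 1 library per mouse. Pcx L-/- mice carried Pcx with a floxed exon 10, made by crossing to Flpe deleter mice, together with Albumin-Cre, which is active in hepatocytes and leaves Pcx intact in other liver cells. The controls were Pcx f/f littermates, labelled WT, and therefore carried the floxed allele as well. The labels give the strain as C57BL/6 in both groups. Depth was 12016242 to 20023108 reads per library.

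Iron balance is set by hepcidin, a hormone secreted by hepatocytes that binds ferroportin, the only known cellular iron exporter, and causes its removal from the cell surface. Its transcription responds to iron through bone morphogenetic protein (BMP) and SMAD signaling and to inflammation through interleukin 6 and STAT3, while inside cells iron regulatory proteins bind hairpins called iron-responsive elements in the mRNA of ferritin, ferroportin and the transferrin receptor and thereby control translation or mRNA stability. Hepatic heme synthesis is limited by Alas1, which heme represses, heme oxygenases break heme down, and metallothioneins are small cysteine-rich proteins that bind zinc and copper, and their genes respond to metals through the factor MTF1 and to glucocorticoids.

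The sequences upstream of the hepcidin and metallothionein genes are shown because these 4 genes form neighboring pairs whose members can be compared. Sequences are from RefSeq (build GRCm38.p6), whose promoter table held 8 of the 10 genes and had no entry for Slc40a1 and Hmox1. Each is the 250 bases upstream of the start annotated in RefSeq, written 5′ to 3′ on the strand of the gene. The Hamp2 window lies inside the gene as GENCODE vM21 lists it (chr7:30922372-30924681), whose 5′ end is further upstream. In the hepcidin genes the capitals mark the BMP response element GGCGCC and the STAT site TTCNNNGAA.
Hamp (chr7:30944030-30944279, minus strand): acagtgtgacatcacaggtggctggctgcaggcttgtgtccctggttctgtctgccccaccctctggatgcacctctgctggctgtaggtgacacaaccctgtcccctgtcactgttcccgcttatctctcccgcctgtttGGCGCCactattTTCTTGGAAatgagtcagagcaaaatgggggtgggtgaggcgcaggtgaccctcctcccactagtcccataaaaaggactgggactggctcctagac
Hamp2 (chr7:30924182-30924431, minus strand): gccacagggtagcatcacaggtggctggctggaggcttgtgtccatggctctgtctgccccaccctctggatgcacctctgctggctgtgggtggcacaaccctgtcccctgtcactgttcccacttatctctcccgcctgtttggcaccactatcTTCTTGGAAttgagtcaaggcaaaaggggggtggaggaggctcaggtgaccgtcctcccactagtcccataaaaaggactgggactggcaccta
The 2 windows were identical at 227 of 247 aligned bases (91.9%). GGCGCC began 109 bases upstream of the Hamp start, and the STAT site TTCTTGGAA was found in both windows. Counted from 1 at the 5′ end of the Hamp window, the difference G145A lies inside GGCGCC, so that the aligned letters of Hamp2 read GGCACC. Searched on both strands, GGCGCC was present in 9.59% and TTCNNNGAA in 7.02% of the 32851 windows of this length in the table.

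The metallothionein windows are shown with matches to the metal response element core TGCNCNC, on either strand, in capitals.
Mt1 (chr8:94178839-94179088, plus strand): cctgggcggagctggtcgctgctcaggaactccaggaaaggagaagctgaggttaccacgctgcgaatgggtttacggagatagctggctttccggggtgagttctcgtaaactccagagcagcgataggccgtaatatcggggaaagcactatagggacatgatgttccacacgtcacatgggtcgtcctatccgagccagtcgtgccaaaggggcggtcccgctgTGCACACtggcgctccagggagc
Mt2 (chr8:94172368-94172617, plus strand): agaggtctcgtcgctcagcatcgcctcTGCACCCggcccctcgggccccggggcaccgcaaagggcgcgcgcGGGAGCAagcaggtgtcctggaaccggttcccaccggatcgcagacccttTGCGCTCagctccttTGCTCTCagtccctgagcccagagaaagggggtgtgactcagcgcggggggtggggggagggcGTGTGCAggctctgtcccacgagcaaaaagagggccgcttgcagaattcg
The Mt2 window held 5 matches and the Mt1 window 1. At least 1 match was present in 44.4% of all windows and 4 or more in 1.28%. The annotation (GENCODE vM21) also lists Mt1 transcripts that start 122 and 152 bases downstream of the start used for this window, and 4 further matches lie within the 129 bases between its first and second listed starts. Mt2 lies 5514 bases upstream of Mt1 on chromosome 8, and Hamp2 lies 17687 bases from Hamp on chromosome 7.

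The iron-responsive elements of 4 of the 10 genes are shown because iron regulatory proteins bind the mRNA there, so that iron can act on these genes after transcription. They were searched in the GENCODE vM21 transcripts (GRCm38) as a C, 5 bases, the loop CAGTG followed by A, C or T, and 5 bases that pair with the first 5 (G-T pairs allowed). Capitals mark this C and the loop, and T is written for U.
Fth1, 5′ UTR (chr19:9982731-9982760, plus strand): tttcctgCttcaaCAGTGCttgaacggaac
Ftl1, 5′ UTR (chr7:45459779-45459808, minus strand): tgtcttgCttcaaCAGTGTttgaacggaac
Slc40a1, 5′ UTR (chr1:45925465-45925494, minus strand): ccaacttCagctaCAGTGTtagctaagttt
Tfrc, 3′ UTR, 1 (chr16:32631218-32631247, plus strand): taattatCggaagCAGTGCcttccataatt
Tfrc, 3′ UTR, 2 (chr16:32631597-32631626, plus strand): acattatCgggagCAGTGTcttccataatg
Tfrc, 3′ UTR, 3 (chr16:32631662-32631691, plus strand): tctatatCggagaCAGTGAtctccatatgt
Tfrc, 3′ UTR, 4 (chr16:32631709-32631738, plus strand): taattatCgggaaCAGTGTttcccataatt
A match was present in 0.719% of the 58797 protein-coding transcripts.

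Libraries were checked first. Pcx, which encodes pyruvate carboxylase, had 846 to 1298 normalized CPM (read counts scaled to library size and TMM factor) in controls and 32.7 to 44.6 in Pcx L-/- mice, a log2 fold change of -4.80 (SE 0.19; edgeR quasi-likelihood test, adjusted p = 3.66e-07). All 10 hepatocyte markers were measured, and their summed level was 111228 to 138652 CPM in controls and 70474 to 104036 in Pcx L-/- liver. Apoa1 and Serpina1a of this list were lower and the median log2 fold change was -0.47. In bulk liver, fewer cells of a type and less RNA per cell cannot be told apart. Pcx L-/- replicate 1 stood apart, with red blood cell markers summing to 4139 CPM, against 304 to 1017 in controls and 388 to 955 in Pcx L-/- replicates 2 to 4. None of the 8 red blood cell markers tested was called (median log2 fold change 0.98). No sinusoidal endothelial marker (12 tested, median log2 fold change -0.15) and no neutrophil or inflammatory monocyte marker (3 of 9 tested, median 0.41, Ly6g at 0 in all libraries) was called. Control replicate 4 was the shallowest library. In the labels, controls 1 and 2 and Pcx L-/- replicate 1 carry lower mouse numbers than the other 5 mice. Comparisons among the 3 lower-numbered mice and among the 5 higher-numbered mice are therefore given where they bear on a result. The only controls among the 5 higher-numbered mice are replicates 3 and 4.

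Of the 10 genes, 5 passed an adjusted p of 0.05 across all genes tested. Hamp, Mt1 and Mt2 were higher and Slc40a1 and Alas1 were lower in Pcx L-/- liver, and Hamp2, Tfrc, Fth1, Ftl1 and Hmox1 were not called. Across all genes 3632 of 13168 were called (27.6%), 14.1% higher and 13.5% lower, which is the background for the 3 higher and 2 lower genes. The 4 values of each genotype did not overlap for 4 of the 10 genes (Hamp, Mt1 and Mt2 higher and Slc40a1 lower), against 27.6% of all genes, 15.1% higher and 12.5% lower. The median log2 fold change was -0.14 over the 10 genes and -0.01 over all genes. The counts over all genes depended on the scaling. The TMM factors were 0.833 to 0.942 in controls and 0.970 to 1.16 in Pcx L-/- libraries, and with scaling by library size only the median of all genes moved to 0.28, with 3913 genes higher and 870 lower in place of 1855 and 1777. The same 5 of the 10 genes were called in the same direction under that scaling.

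**Figure D1:**
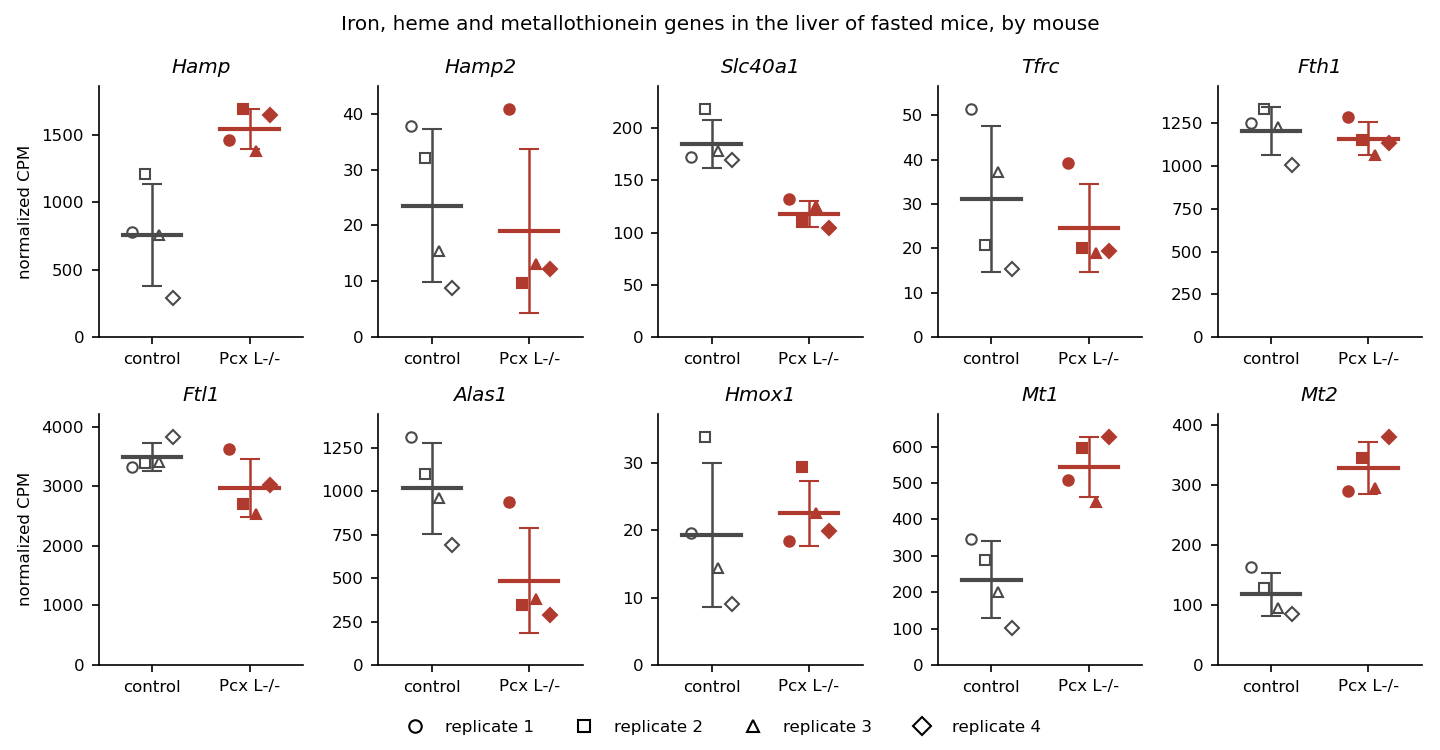
Normalized CPM (y axis, from 0) of each of the 10 genes in 4 control livers (open symbols) and 4 Pcx L-/- livers (filled symbols), with the mean (horizontal line) and SD (error bar). Symbols mark the replicate number, which does not pair mice. Hamp, Mt1 and Mt2 are higher in every Pcx L-/- liver than in any control, Slc40a1 is lower in every one, and Alas1 in Pcx L-/- replicate 1 (938) lies among the controls.

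Gene positions are given as GENCODE vM21 lists them on GRCm38 (mm10). Hamp, the main hepcidin gene (ENSMUSG00000050440, chr7:30942368-30944032, minus strand), was higher in Pcx L-/- liver. Control replicates 1 to 4 had 777, 1208, 760.0 and 288 normalized CPM, and Pcx L-/- replicates 1 to 4 had 1465, 1694, 1380.4 and 1647. Every Pcx L-/- liver lay above every control, and control replicate 4 was far below the other controls. The log2 fold change was 1.03 (SE 0.33, adjusted p = 0.0368), or 2.04-fold in mean CPM (758 ± 376 and 1546 ± 148, SD, n = 4). Leaving out any of 5 mice (controls 1 and 3, Pcx L-/- mice 2 to 4) ended the call, with an adjusted p of up to 0.0900, while the log2 fold change remained between 0.76 and 1.34. Among the 5 higher-numbered mice, whose only controls were replicates 3 and 4, it was 1.59 (adjusted p = 0.0052). Among the 3 others, which hold 1 Pcx L-/- mouse, it was 0.57.

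Hamp2, the neighboring copy of the gene (ENSMUSG00000056978, chr7:30922372-30924681, minus strand), was not called. Its level was 37.9, 32.0, 15.5 and 8.79 normalized CPM in control replicates 1 to 4 and 40.9, 9.70, 13.1 and 12.2 in Pcx L-/- replicates 1 to 4. Pcx L-/- replicate 1 was as high as the highest control and the other 3 were at the low end, so the groups overlapped. The log2 fold change was -0.33 (SE 0.50, adjusted p = 0.663) and it was not called under any of the alternatives, although its size varied widely. It was at -1.04 without Pcx L-/- replicate 1 (adjusted p = 0.0656), and turned to 0.04 with the mouse number series as a covariate and to 0.23 among the 3 lower-numbered mice. Per length, the Hamp to Hamp2 ratio of FPKM (fragments scaled by transcript length and library total) was 22.9, 42.1, 54.7 and 36.5 in control replicates 1 to 4 and 40.0, 195, 118 and 150.4 in Pcx L-/- replicates 1 to 4. The mean difference on the log2 scale was 1.54, which did not pass the exact two-sided permutation test (p = 0.0857, 0.257 after adjustment over 3 ratios, with 0.0286 the smallest p that 4 against 4 or 4 against 3 allows). Without Pcx L-/- replicate 1 it was 2.02 (exact permutation p = 0.0286, not adjusted). The transcripts of Hamp and Hamp2 were not compared here. How many reads match both genes is therefore not known, and the Hamp2 values are uncertain.

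Slc40a1, which encodes ferroportin (ENSMUSG00000025993, chr1:45908068-45926523, minus strand), was lower in Pcx L-/- liver. Controls had 172, 218, 178 and 170 normalized CPM, and Pcx L-/- livers 132, 110, 125 and 104. The groups did not overlap on this scale, although on the deposited FPKM scale control replicate 4 (36.0) was just below Pcx L-/- replicate 3 (36.8). The log2 fold change was -0.65 (SE 0.13, adjusted p = 0.00446), or 0.638 of the control mean. It ranged from -0.71 to -0.56 with each mouse left out, always past the threshold, and was -0.37 when scaled by library size only (adjusted p = 0.0421). Within the series of mouse numbers it was -0.62 (adjusted p = 0.0058) and -0.56 (adjusted p = 0.342 with 3 mice). Ferroportin is also made by Kupffer cells, and of 14 Kupffer cell and macrophage markers none was lower and 1, Cd68, was higher (median log2 fold change 0.09, summed level 429 to 596 CPM in controls and 485 to 607 in Pcx L-/- liver).

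Tfrc, which encodes the receptor for transferrin-bound iron (ENSMUSG00000022797, chr16:32608920-32632794, plus strand), was variable in both groups. It was at 51.5, 20.7, 37.2 and 15.4 normalized CPM in controls and 39.4, 20.2, 19.04 and 19.4 in Pcx L-/- livers. Replicates 2 to 4 of the Pcx L-/- group were close together and replicate 1 was higher, inside the control range. The log2 fold change was -0.36 (SE 0.35, adjusted p = 0.485) and moved to -0.69 (adjusted p = 0.135) without Pcx L-/- replicate 1. Reticulocytes carry much transferrin receptor, and the red blood cell markers were highest in Pcx L-/- replicate 1. Control replicate 1, however, had the highest Tfrc of all libraries and the lowest sum of these markers (304 CPM). The part of red blood cells in the Tfrc levels was not tested.

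The ferritin genes were abundant and neither was called. They lie on different chromosomes, Fth1 (ENSMUSG00000024661, chr19:9980598-9985098, plus strand) and Ftl1 (ENSMUSG00000050708, chr7:45457944-45459884, minus strand). Fth1 was at 1253, 1334, 1228 and 1005 normalized CPM in controls and 1288, 1154, 1063 and 1137 in Pcx L-/- livers, overlapping throughout, with a log2 fold change of -0.05 (SE 0.14, adjusted p = 0.809). Ftl1 was at 3315, 3381, 3402 and 3832 in controls and 3630.0, 2700, 2533 and 3017 in Pcx L-/- livers, with a log2 fold change of -0.23 (SE 0.16, adjusted p = 0.320). Pcx L-/- replicates 2 to 4 lay below all controls for Ftl1 and replicate 1 lay among them, and without replicate 1 Ftl1 was called lower (-0.34, adjusted p = 0.0403). The sign of both genes depended on the scaling, since with library size only Fth1 was at 0.22 and Ftl1 at 0.05. The Ftl1 to Fth1 ratio of FPKM was 2.27 to 3.41 in controls and 2.09 to 2.52 in Pcx L-/- livers (log2 difference -0.19, exact permutation p = 0.286, 0.429 adjusted). Processed copies took few reads, with 732 in all libraries for Ftl1-ps1 against 439532 for Ftl1. Of the genes shown with an iron-responsive element, Fth1 and Ftl1 (1 each) and Tfrc (4) were not called and Slc40a1 (1) was lower. Exons of Gm10252 on the opposite strand cover 26.5% of the exonic bases of Ftl1, and Gm10252 was not among the genes counted.

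Alas1, which catalyzes the rate-limiting step of hepatic heme synthesis (ENSMUSG00000032786, chr9:106233455-106248654, minus strand), was lower in Pcx L-/- liver, but not in all mice. Controls had 1317, 1099.8, 964 and 689 normalized CPM, and Pcx L-/- replicates 1 to 4 had 938, 343, 380 and 286. Replicates 2 to 4 were below every control, whereas replicate 1 was above control replicate 4. The log2 fold change was -1.06 (SE 0.35, adjusted p = 0.0430), with means of 1017 ± 263 and 487 ± 304 (SD, n = 4). Without Pcx L-/- replicate 1 it was -1.60 (adjusted p = 2.06e-04). Leaving out any of 6 mice (controls 1 to 3, Pcx L-/- mice 2 to 4) ended the call (adjusted p of up to 0.121, log2 fold change between -1.09 and -0.88). It was -1.30 (adjusted p = 5.20e-04) among the 5 higher-numbered mice and -0.36 (adjusted p = 0.528) among the 3 others. DESeq2 gave -1.07 and did not call it (Wald test, adjusted p = 0.0846). Alas2, the erythroid form of the enzyme, was highest in Pcx L-/- replicate 1 (93.1 CPM, against 22.2 to 29.8 in replicates 2 to 4 and 40.2 to 74.8 in controls).

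Hmox1, which degrades heme and is induced by heme and oxidative stress (ENSMUSG00000005413, chr8:75093621-75100589, plus strand), was low and not called. Controls had 19.7, 33.9, 14.4 and 9.09 normalized CPM and Pcx L-/- livers 18.4, 29.3, 22.6 and 19.9, and the Pcx L-/- values all lay within the control range. The log2 fold change was 0.22 (SE 0.32, adjusted p = 0.653), and was -0.0043 without control replicate 4. Among the 5 higher-numbered mice, whose only controls were replicates 3 and 4, Hmox1 was higher (1.01, adjusted p = 0.0082). Among the 3 others, which hold 1 Pcx L-/- mouse, it was at -0.53. The difference between the series was not tested.

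Mt1 (ENSMUSG00000031765, chr8:94179082-94180327, plus strand) and Mt2 (ENSMUSG00000031762, chr8:94172664-94173568, plus strand) were both higher in Pcx L-/- liver. Mt1 was at 346, 289, 202 and 103 normalized CPM in controls and 508, 596, 448 and 628 in Pcx L-/- livers, with a log2 fold change of 1.21 (SE 0.30, adjusted p = 0.0130). Mt2 was at 163, 128, 95.1 and 84.3 in controls and 290, 344, 295 and 380.0 in Pcx L-/- livers, with a log2 fold change of 1.48 (SE 0.20, adjusted p = 9.71e-04). No Pcx L-/- liver overlapped the controls for either gene, the mean levels were 2.32-fold and 2.79-fold those of controls, and control replicate 4 was lowest for both. With each mouse left out the log2 fold change was 0.97 to 1.46 for Mt1 and 1.35 to 1.67 for Mt2, and both calls held. Among the 5 higher-numbered mice, whose only controls were replicates 3 and 4, it was 1.87 and 1.92. Among the 3 others, which hold 1 Pcx L-/- mouse, it was 0.69 and 1.004. The Mt1 to Mt2 ratio of FPKM was 2.18, 2.33, 2.19 and 1.26 in controls and 1.81, 1.78, 1.57 and 1.70 in Pcx L-/- livers (log2 difference -0.18, exact permutation p = 0.514, 0.514 adjusted), and -0.38 without control replicate 4 (exact permutation p = 0.0286, not adjusted). Mt3 had 5 reads in all libraries and Mt4 had none. On the opposite strand, exons of the annotated gene Gm45774 cover 73.5% of the exonic bases of Mt2. Gm45774 was not among the genes counted.

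Hamp, Mt1 and Mt2 are short, with summed exon lengths of 392, 540.0 and 556 bases. Among the 229 tested genes of 300 to 600 bases, 14.4% were higher and 6.99% were lower, the median log2 fold change was 0.15 and the 90th percentile was 1.01. These genes were lower in control replicate 4 than in the other controls by a median of 0.34 on the log2 scale (-0.34), and without that library their median log2 fold change was 0.04. Hamp, Mt1 and Mt2 were at 0.76, 0.97 and 1.35 without it. The part of transcript length in these results was not tested.

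**Figure D2:**
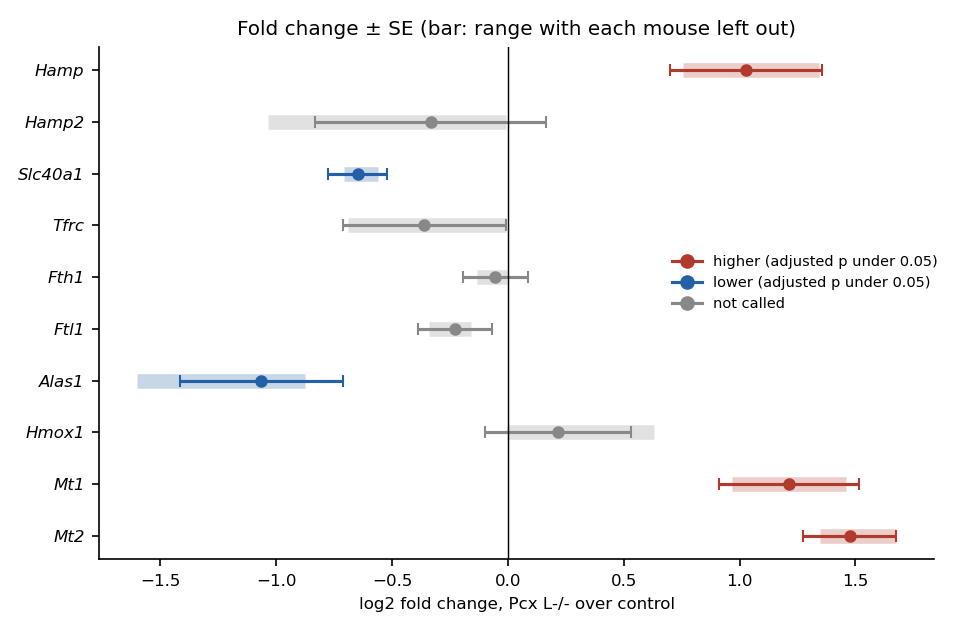
Log2 fold change of each gene (x axis, Pcx L-/- over control) with its SE (error bar) and the range of the estimate when each of the 8 mice was left out in turn (shaded bar). Hamp, Mt1 and Mt2 (0.76 or more throughout) and Slc40a1 and Alas1 (-0.56 or less throughout) keep their sign, and the ranges of Hamp2, Tfrc, Fth1 and Hmox1 reach to about 0.

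Levels were compared between genes per length, as deposited FPKM, over the 4 mice of each genotype. In controls Ftl1 (3255 ± 49.5 FPKM), Hamp (1788 ± 937) and Fth1 (1268 ± 210.2) were at the top, and the SDs of Hamp and Fth1 overlapped. Mt1 (401 ± 192), Alas1 (302 ± 89.2) and Mt2 (193 ± 65.1) came next and were also within their spread of one another. Hamp2 (49.8 ± 30.1), Slc40a1 (42.8 ± 6.88), Hmox1 (11.1 ± 6.50) and Tfrc (5.86 ± 3.21) were low. In Pcx L-/- liver the highest mean was that of Hamp (4375 ± 645), followed by Ftl1 (3363 ± 280.4), Fth1 (1476 ± 59.2), Mt1 (1120 ± 214), Mt2 (654 ± 120.4) and Alas1 (168 ± 85.9). In Pcx L-/- replicate 1 Ftl1 (3636 FPKM) was just above Hamp (3624). Hamp2 (45.7 ± 30.2), Slc40a1 (33.0 ± 2.72), Hmox1 (15.7 ± 4.29) and Tfrc (5.41 ± 1.60) stayed at the bottom. FPKM values carry no TMM scaling, so they are read here for the order of genes and not for the change of a gene.

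Across the 8 libraries, Hamp and Mt1 (Pearson r = 0.95 on log2 normalized CPM) and Mt1 and Mt2 (r = 0.94) varied most alike among the 10 genes. Taking deviations from the genotype means, the values were 0.88 and 0.91. Hamp and Hmox1 had r = 0.80, and 0.88 within genotype, and Hamp and Fth1 had r = 0.41 and 0.83. Control replicate 4 was the lowest control for each of the 10 genes except Ftl1, for which it was the highest. For Slc40a1 the margin was small (170 normalized CPM, against 172 in control replicate 1). The part of control replicate 4 in the correlations among the 10 genes was not tested. Alas1 and Hamp2 had r = 0.74, and 0.91 within genotype, and Alas1 and Slc40a1 had r = 0.85 and 0.61. Hamp and Hamp2 had r = 0.21 and 0.54. Slc40a1 and Mt2 were opposed (r = -0.87) across all libraries but not within genotype (-0.10). These are descriptions over 8 libraries that share 1 genotype contrast. Among all genes tested, those most like Hamp were Gm10076, Cox14 and Gm11844 (r = 0.99, 0.99 and 0.99). The closest to Mt1 were Mettl21a, Mrps17 and Lsm7 (r = 0.99, 0.99 and 0.98), and to Mt2 Pdzd11, Urm1 and Lyplal1 (r = 0.99, 0.99 and 0.99). For Alas1 they were Galk1, Ivd and Cyp3a25 (r = 0.99, 0.99 and 0.99) and for Slc40a1 Pank3, Aldoc and Mtmr1 (r = 0.99, 0.98 and 0.98). Those of Hamp2 were led by Adh5 (r = 0.98), of Tfrc by Gm16348 (r = 0.97), of Fth1 by Snrpa1 (r = 0.98), of Ftl1 by Pde7a (r = 0.99) and of Hmox1 by Il4i1 (r = 0.97).

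The hepcidin control list held both hepcidin genes, their regulators and targets of BMP and SMAD signaling. Its genes moved in both directions. Of 24 tested, 3 were higher (12.5%), Hamp included, and 5 were lower (20.8%), with a median log2 fold change of -0.13. The shares over all genes were 14.1% and 13.5%. Under scaling by library size only 6 were higher and 3 lower, with a median of 0.17 (all genes 0.28). Id1, a target of BMP and SMAD signaling, was at 3.75, 11.0, 8.03 and 2.40 normalized CPM in controls and 14.4, 10.6, 14.5 and 27.2 in Pcx L-/- livers (log2 fold change 1.37, SE 0.41, adjusted p = 0.0290), with overlap between Pcx L-/- replicate 2 and control replicate 2. Hjv, the BMP co-receptor hemojuvelin, rose by 0.38 (SE 0.12, adjusted p = 0.0306). Among the genes that were lower, Tmprss6, the protease that cleaves hemojuvelin and lowers hepcidin, was at 446, 441, 429 and 501 in controls and 319, 213, 226 and 251 in Pcx L-/- livers (-0.85, SE 0.15, adjusted p = 0.00254). Il6ra, the interleukin 6 receptor, was at -0.99 (SE 0.15, adjusted p = 0.00136) and Tfr2, the hepatocyte iron sensor transferrin receptor 2, at -0.68 (SE 0.16, adjusted p = 0.0100). The groups did not overlap for Tmprss6, Il6ra, Tfr2 or Hjv. Smad6 (-0.56, SE 0.15, adjusted p = 0.0206) and Acvr1 (-0.52, SE 0.12, adjusted p = 0.00866) of this list were also lower, without overlap. Smad7 (0.37, SE 0.20, adjusted p = 0.202) and Atoh8 (0.64, SE 0.23, adjusted p = 0.0575) were not called. With 1 mouse left out 4 to 6 of the list were lower and 0 to 5 higher. The number higher was 0 without control replicate 1 or Pcx L-/- replicate 4, 1 without control replicate 3 or Pcx L-/- replicate 3, and 5 without Pcx L-/- replicate 1.

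Among genes of iron uptake, storage and export, 2 of 24 were higher (8.33%) and 9 lower (37.5%), against 14.1% and 13.5% of all genes. The median log2 fold change was -0.30 (-0.03 by library size only, with 4 higher and 4 lower). Steap3, a ferrireductase, was lower (-1.02, SE 0.25, adjusted p = 0.0122), as were Steap2 of the same family (-0.76, SE 0.20, adjusted p = 0.0163) and Trf, transferrin (-0.73, SE 0.25, adjusted p = 0.0461). The groups overlapped for Steap3 and Trf. The Trf value is uncertain, because 63.5% of its exonic bases are shared with the same-strand gene Gm20425, which had 0 reads in the table, and only 3469 reads were assigned to Trf. Lcn2, the siderophore-binding protein lipocalin 2, was at 5.73, 8.48, 5.57 and 2.30 normalized CPM in controls and 10.7, 20.03, 29.4 and 11.4 in Pcx L-/- livers (1.67, SE 0.38, adjusted p = 0.00873). Lcn2 is also made by neutrophils, whose markers summed to 2.497 to 6.89 CPM in controls and 5.26 to 7.66 in Pcx L-/- livers, and their part in its level was not tested. Pcbp1, an iron chaperone, was higher by less (0.35, SE 0.11, adjusted p = 0.0435). Leaving out 1 mouse changed the number lower to 5 (without Pcx L-/- replicate 2 or 4) to 11 (without Pcx L-/- replicate 1).

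Of 16 heme synthesis genes, 7 were lower, namely Alas1, Alad, Urod, Cpox, Fech, Abcb10 and Pgrmc1, and 2 were higher, with a median log2 fold change of -0.23 (over all genes 13.5% lower, 14.1% higher and a median of -0.01). This balance turned with scaling by library size only, with 2 lower, 4 higher and a median of 0.02, and leaving out 1 mouse gave 1 to 8 lower. The number lower was 1 without Pcx L-/- replicate 2, 3 or 4, 2 to 3 without control replicate 1, 2 or 3, and 8 without Pcx L-/- replicate 1. Abcb10, a mitochondrial transporter, was at 33.6, 33.3, 35.2 and 30.2 normalized CPM in controls and 24.4, 19.2, 21.97 and 17.7 in Pcx L-/- livers, without overlap (-0.67, SE 0.12, adjusted p = 0.0030). Pgrmc1, a heme-binding partner of ferrochelatase, was at -0.53 (SE 0.14, adjusted p = 0.0193). Clpx, part of the protease complex that acts on Alas1 protein in mitochondria, was at 81.7, 81.9, 81.4 and 100.2 in controls and 86.5, 217, 133 and 186 in Pcx L-/- livers (0.85, SE 0.24, adjusted p = 0.0208). Like Alas1, Clpx in Pcx L-/- replicate 1 was within the control range and in replicates 2 to 4 outside it. Slc25a39, a mitochondrial carrier, was higher in every Pcx L-/- liver (0.60, SE 0.12, adjusted p = 0.00452).

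In heme breakdown and transport, 1 of 14 genes was higher (7.14%) and 4 were lower (28.6%), against 14.1% and 13.5% of all genes. The median log2 fold change was -0.12, and by library size only 3 were higher and 2 lower (median 0.16). Hmox2, the constitutive heme oxygenase, was at 36.5, 37.8, 37.8 and 42.5 normalized CPM in controls and 55.2, 86.5, 74.0 and 88.2 in Pcx L-/- livers (0.98, SE 0.15, adjusted p = 0.00133). Its exons share 40.2% of their bases with Cdip1 on the opposite strand, and whether counting used strand is not known from the sources at hand, so the 2 genes may not be fully separated. Bach1, the heme-regulated repressor of Hmox1, was lower in every Pcx L-/- liver (-0.74, SE 0.17, adjusted p = 0.00814). Lrp1, a receptor for heme bound to hemopexin, was at -0.94 (SE 0.29, adjusted p = 0.0333). Its level was 1498, 730, 1288 and 2474 normalized CPM in controls and 852, 795, 779 and 690 in Pcx L-/- livers. Flvcr2, a transporter once described as a heme importer, was at -0.84 (SE 0.22, adjusted p = 0.0183). The groups overlapped for Lrp1 and Flvcr2. Leaving out 1 mouse gave 1 lower (control replicate 1 or Pcx L-/- replicate 2), 2 lower (control replicate 3 or Pcx L-/- replicate 3 or 4) and up to 7 lower (Pcx L-/- replicate 1).

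Of 21 iron-sulfur cluster assembly genes tested, 5 were higher (23.8%) and 0 lower, against 14.1% and 13.5% of all genes. The median log2 fold change was 0.05, and 0.33 with 9 higher by library size only. The higher genes included Hscb, a co-chaperone of the assembly complex (0.86, SE 0.21, adjusted p = 0.0114). Ciao2b (0.72, SE 0.21, adjusted p = 0.0253) and Nubp2 (0.71, SE 0.13, adjusted p = 0.00404) of the cytosolic pathway were also higher. With 1 mouse left out 4 to 6 were higher, and 2 were lower without Pcx L-/- replicate 1 and 1 without control replicate 4. With a replicate block 1 was lower.

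Apart from Mt1 and Mt2, no other gene of the metallothionein, zinc and copper list was higher. Of 21 tested, 2 were higher (9.52%) and 6 lower (28.6%), against 14.1% and 13.5% of all genes. The median log2 fold change was -0.17 (0.13 by library size only, with 4 higher and 2 lower). The lower genes included the zinc importers Slc39a5 (-1.24, SE 0.29, adjusted p = 0.00986) and Slc39a4 (-0.82, SE 0.27, adjusted p = 0.0410). The copper importer Slc31a1 (-0.69, SE 0.13, adjusted p = 0.00352) was also lower. The groups overlapped for Slc39a4. Slc39a5 was low, at 1.498 to 3.42 normalized CPM in controls and 0.870 to 1.28 in Pcx L-/- livers. The number lower was 2 without control replicate 3 or Pcx L-/- replicate 2 or 4, and Mt1 and Mt2 remained the 2 higher genes with any mouse left out.

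**Figure D3:**
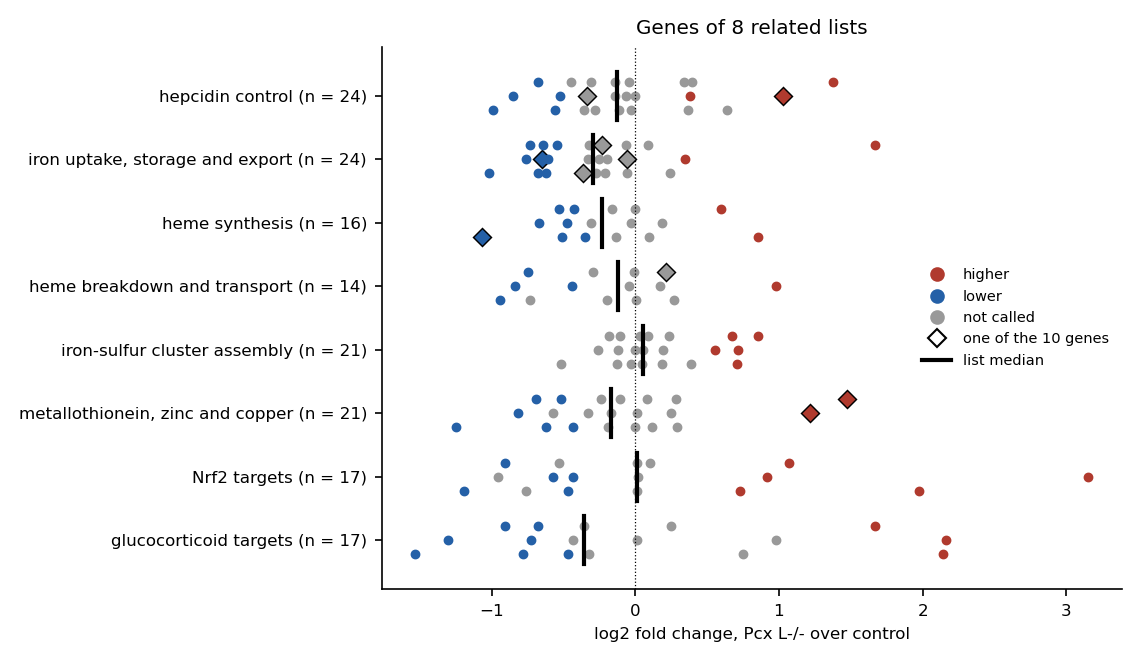
Log2 fold change (x axis, Pcx L-/- over control) of each tested gene in 8 related lists, with calls in color, the 10 genes described here as outlined diamonds and the list median as a black line. Mt1 and Mt2 stand at the high end of the metallothionein, zinc and copper list, and Alas1 is at the low end of heme synthesis.

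Genes known to respond to signals that also act on Hmox1 and the metallothioneins were set beside them. Of 17 Nrf2 targets tested, 5 were higher (29.4%) and 5 lower (29.4%), with a median log2 fold change of 0.01. Over all genes 14.1% were higher and 13.5% lower. The Nrf2 counts were 5 and 2 by library size only (median 0.28) and 5 and 3 with no filter on low counts. Cbr3 (3.15, SE 0.70, adjusted p = 0.00813), Gsta1 (1.98, SE 0.49, adjusted p = 0.0133) and Srxn1 (1.07, SE 0.16, adjusted p = 0.00133) were higher, and Gstp1 (-1.19, SE 0.25, adjusted p = 0.00585), Abcc3 (-0.91, SE 0.23, adjusted p = 0.0155) and Gclm (-0.57, SE 0.11, adjusted p = 0.00482) lower. Cbr3 and Gsta1 were low, so the size of their change is uncertain. Cbr3 had 3 to 14 reads per library in controls and 23 to 277 in Pcx L-/- livers, highest in replicate 2. Gsta1 had 2 to 17 reads per library in controls and 16 to 80 in Pcx L-/- livers. The groups overlapped for Gsta1 and Abcc3. Of 17 glucocorticoid targets, 3 were higher (17.6%) and 7 lower (41.2%), with a median of -0.36, and -0.06 by library size only. Sgk1 (2.14, SE 0.37, adjusted p = 0.00254) and Cdkn1a (2.16, SE 0.42, adjusted p = 0.00437) were higher with Lcn2. Lpin1 (-1.53, SE 0.43, adjusted p = 0.0234), Tdo2 (-1.30, SE 0.26, adjusted p = 0.00497) and Fkbp5 (-0.91, SE 0.24, adjusted p = 0.0163) were lower. Lpin1 overlapped between groups, at 227, 216, 545 and 960 normalized CPM in controls and 116, 228, 187 and 143 in Pcx L-/- livers. With 1 mouse left out 2 (without Pcx L-/- replicate 4) to 7 (without Pcx L-/- replicate 1) Nrf2 targets and 2 (without control replicate 3 or Pcx L-/- replicate 3 or 4) to 8 glucocorticoid targets were lower, and each list held genes of both directions.

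**Figure D4:**
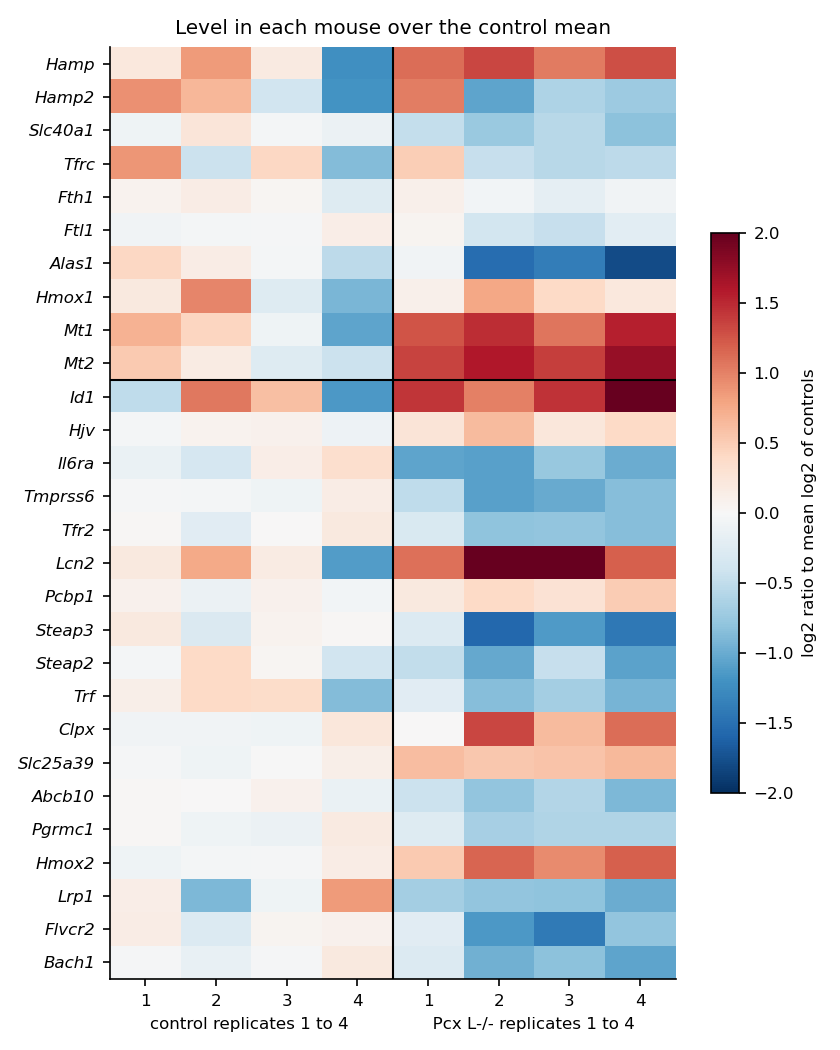
Level of the 10 genes (above the line) and of 18 named genes of the first 4 lists (below) in each mouse, as log2 ratio to the mean of the log2 levels of the controls (color, saturating at 2 and -2). Pcx L-/- replicate 1 is paler than replicates 2 to 4 for Alas1, Tfr2, Steap3, Clpx and Bach1, and resembles them for Hamp, Mt1 and Mt2.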

How the data were processed

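Liver mRNA was measured by RNA-seq in 8 mice, and groups were taken from the labels. The authors deposited raw read counts per gene and FPKM values. Per the methods, reads were aligned to mm10, and the submitters' processing notes name STAR 2.5, HTSeq 0.6.1 and DESeq2. Neither the annotation release nor the use of strand in counting was given in the sources used here. The deposited FPKM values equalled count over length and library total for 100% of 142384 values above 0 (tolerance 1e-06), so they carry no further scaling.

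Counts were tested with edgeR 4.0.16 (R 4.3.3; quasi-likelihood F test with TMM factors and a single genotype term; filterByExpr at minimum counts of 10 per library and 15 in total), with Benjamini-Hochberg adjustment over 13168 genes and a threshold of 0.05. SEs were derived from the log2 fold change and F. FPKM ratios within a library were compared by exact two-sided permutation. Depth limits low genes such as Hmox1 (91 to 653 reads per library), and n = 4 per group limits all comparisons. Gene symbols were matched for 34490 of 35275 identifiers. The scripts were tested on simulated data.

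The 10 genes and the gene lists were chosen with earlier results of these data known. Named genes were the 10 genes, Pcx, up to 3 genes per direction and list with the largest log2 fold change past the threshold, the 3 genes most correlated with each of the 10, and defining markers. Other genes named from the heme synthesis and hepcidin control lists were chosen after their values were seen. Alternatives were other normalizations, no filter on low counts, DESeq2 1.42.0, limma 3.58.1 on log2(FPKM + 1) and log2(FPKM + 0.1), blocking on replicate number, mouse number series as a covariate and each mouse left out, and, chosen after seeing the data, each series of mouse numbers alone. Replicate numbers do not pair mice: deviations of same-numbered mice from their group means correlated at 0.13, -0.15, -0.13 and -0.09. No pair of replicates was a duplicate (Spearman rho 0.976 to 0.993).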

Additional observations from a re-analysis of the deposited data

Results flagged for a closer look

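Groups of 4 values were examined, 98 in all (49 genes and ratios in each genotype). In 11 of them the gap of 1 mouse to the nearest other exceeded the 95% critical value of Dixon's test. For independent groups chance gives about 1 in 20. The groups here share the same mice, and most of the genes were named for passing the genotype test. The count of 11 can therefore not be read against that rate. In 7 of the 11 the mouse was Pcx L-/- replicate 1. The gap as a share of the group's range was 0.891 for Hamp2 (40.9 against 9.70 to 13.1 normalized CPM in the other 3 mice), 0.942 for Tfrc (39.4 against 19.04 to 20.2) and 0.856 for Alas1 (938 against 286 to 380). It was 0.900 for Tfr2 (478 against 328 to 343), 0.856 for Pgrmc1 (869 against 652 to 684), 0.960 for Slc31a1 (139 against 103 to 105) and 0.865 for Tdo2 (2162 against 897 to 1068). In each of these 7 it was the highest of the Pcx L-/- mice. Control replicate 4 was the mouse for Ftl1 (0.831, 3832 against 3315 to 3402), for Clpx (0.975, 100.2 against 81.4 to 81.9) and for the Mt1 to Mt2 ratio (0.864, 1.26 against 2.18 to 2.33). Control replicate 2 was the mouse for Slc40a1 (0.830, 218 against 170 to 178).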

How the results depend on the processing

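The number of the 10 genes called was 5 and was also 5 with other size factors, with library size only, with no filter on low counts, with the series of mouse numbers as a covariate and with limma on FPKM. Replicate numbers did not pair mice, and with a replicate block the number was 5 again, with 2975 genes called in all in place of 3632. DESeq2 lost Alas1 (1 lower), and limma on all genes above 0 called 3, with 0 lower. With library size only, 3913 genes were higher and 870 lower. With limma they were 3822 and 823 (FPKM + 1), 3779 and 822 (FPKM + 0.1) and 3189 and 637 (all genes above 0). With each mouse left out, 3 to 6 of the 10 genes were called, 2 to 3 higher and 1 to 3 lower, and 2109 (without Pcx L-/- replicate 4) to 4602 (without Pcx L-/- replicate 1) genes in all, 1156 to 2232 higher and 953 to 2370 lower. Fewer than 5 were called without control replicate 1, 2 or 3 (3, 4 and 3) and without Pcx L-/- replicate 2, 3 or 4 (3 each). In the 3 lower-numbered mice, 0 of the 10 genes and 32 in all (25 higher, 7 lower) were called; 1 Pcx L-/- mouse is assumed there to vary like the controls. The Hamp to Hamp2 difference was 1.26 to 2.02 and the Mt1 to Mt2 difference was -0.38 to -0.086 with a mouse left out. Uncalled genes changed sign: Fth1 was at 0.22 (library size only), 0.23 (all 3 limma fits), 0.0021 (higher-numbered mice) and 0.0036 (lower-numbered mice). Ftl1 was at 0.047 (library size only), 0.043 (limma) and 0.13 (lower-numbered mice), Tfrc at 0.018 (limma, FPKM + 0.1) and 0.13 (lower-numbered mice), Hamp2 at 0.041 (covariate) and 0.23 (lower-numbered mice), and Hmox1 at -0.0043 (without control replicate 4, in a range up to 0.63 with 1 mouse left out) and -0.53 (lower-numbered mice). The cause was not tested.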
